A study of Mus musculus with 3 samples.

Results

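The cytosolic ribosome of the mouse is built from rRNA and a set of ribosomal proteins, each encoded by a gene of its own. The genes described here are the 86 protein-coding genes, of 21938 in the GENCODE vM21 annotation on chromosomes 1 to 19, X and Y of mm10, whose symbol is Rpl or Rps followed by a digit, or Rplp0, Rplp1, Rplp2 or Rpsa. Kinases named Rps6k and names with -ps were left out. Of the 86, 77 encode core ribosomal proteins, 46 of the large subunit with its P stalk and 31 of the small subunit. The other 9 are 8 paralogs (Rpl22l1, Rps27l, Rps27rt, Rpl10l, Rpl36al, Rpl39l, Rpl3l and Rpl7l1) and Rps19bp1, which encodes a protein that binds Rps19 and is no part of the ribosome.

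The cells were long-term hematopoietic stem cells (HSCs) from the bone marrow of 8-week-old wild-type C57BL6/J mice, enriched for c-Kit and sorted as LSK CD48- CD150+ CD34-. They were profiled once by DOGMA-seq, which reads open chromatin (ATAC), RNA and antibody tags from the same cell, with no treatment and no second condition. Of 605049 barcodes, 3757 were called as cells, and the 3108 with more than 3000 fragments in peaks were used. They held 37142391 unique ATAC fragments, with a median of 11442 per cell (3970 to 194173), and a median of 3860.5 RNA UMIs (234 to 52809). With 1 library of each kind, cells are not replicates: no test was made, and all intervals are 95% intervals that cover counting error only.

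The cell label was checked on promoters fixed as markers. A promoter was called open when at least 10% of cells had a fragment within 1000 bp of the gene start. Of 10 HSC markers 5 were open, among them Kit, Fgd5, Hlf and Hoxb5, as were 3 of 4 megakaryocyte markers (Pf4, Gp9 and Itga2b) and 1 of 3 markers of stroma and endothelium (Col1a1). None of the 4 markers each of B cells, T cells, neutrophils and erythroid cells was open, and no marker was at 0. The median HSC marker had a fragment in 8.96% of cells and the median megakaryocyte marker in 19.6%. As 47.3% of all protein-coding genes were open, 5 of 10 is no more than the background, and promoter openness did not settle the cell label.

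Most ribosomal proteins are needed in equal numbers, and their genes are among the most active housekeeping genes of a growing cell. HSCs are known for a low rate of protein synthesis. The mRNAs of many ribosomal proteins begin with a C and a run of pyrimidines, the TOP motif, through which growth signals set how much of them is translated. Promoters of these genes are known for ETS-type (GABP), YY1 and SP sites in place of a TATA box.

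A minority of core members held a pyrimidine run at the RefSeq start. Such a run was still several times more frequent in core members than in other genes. The start sequences of 6 core members and of Rpl10 are shown first for this reason. They are RefSeq sequences of GRCm38.p6 from 10 bases before the start to 20 bases from it, with the longest pyrimidine run in capitals. The first 6 met a TOP start, a C at the first base followed by at least 4 pyrimidines, and had their RefSeq start within 50 bp of the start of the principal annotated transcript. Rpl10, with a run of 3, did not meet it at its RefSeq start, and other starts were not searched.
Rps6: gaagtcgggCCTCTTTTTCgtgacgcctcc
Rps15a: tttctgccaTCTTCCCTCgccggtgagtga
Rps18: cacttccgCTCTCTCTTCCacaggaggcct
Rps21: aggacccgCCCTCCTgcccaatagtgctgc
Rps27: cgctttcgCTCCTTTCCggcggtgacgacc
Rpl38: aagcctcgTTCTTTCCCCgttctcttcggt
Rpl10: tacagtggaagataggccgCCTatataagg
The window of Rps6, whose product is the substrate of the S6 kinases, was chr4:86857348-86857377 on the minus strand. Those of Rps15a (chr7:118116128-118116157), Rps18 (chr17:33955646-33955675) and Rps27 (chr3:90213629-90213658) were also on the minus strand. Those of Rps21 (chr2:180257369-180257398), Rpl38 (chr11:114668570-114668599) and Rpl10 (chrX:74270806-74270835) were on the plus strand.

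RefSeq promoters of 300 bases, 250 before and 50 after the start, were found for 66 members, 57 of them core. A TOP start was present in 12 of the 57 core members (21.1%), against 360 of 16538 protein-coding genes with a RefSeq promoter (2.18%) and 184 of 8199 such genes that were open in HSCs (2.24%). None of 69 genes for mitochondrial ribosomal proteins had one. Beside the 6 genes shown, the 12 were Rpl14, Rpl15, Rpl28, Rpl35, Rplp2 and Rps10. A pyrimidine run of at least 8 bases within the 30 bases was present in 36.8% of core members, 10.4% of open genes and 8.70% of genes for mitochondrial ribosomal proteins. RefSeq starts were within 50 bp of the principal annotated start in 40 of the 57 core members and within 10 bp in 19. Both searches depend on the RefSeq start, the test for a C at the first base to the base and the search for a run through its window of 30 bases.

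Known promoter motifs differed less. Letters were searched on both strands of the 300 bases. GGAAG, the core that ETS factors bind, was present in 91.2% of core members, against 75.5% of open genes and 81.2% of genes for mitochondrial ribosomal proteins. The YY1 letters AAGATGG were found in 14.0% of core members, 7.71% of open genes and 18.8% of genes for mitochondrial ribosomal proteins. The NRF1 letters GCGCATG were found in 14.0%, 8.24% and 11.6%. The GC box GGGCGG, to which SP and KLF factors bind, was present in 59.6% of core members, less often than in open genes (71.8%) and more often than in all protein-coding genes (48.6%). The NF-Y letters CCAAT were found in 31.6% against 39.2%, the Myc E-box CACGTG in 8.77% against 10.8%, and TATAAA in 8.77% against 5.70% of open and 12.9% of all genes. A match is a string of letters, not a site shown to be bound.

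**Figure D1:**
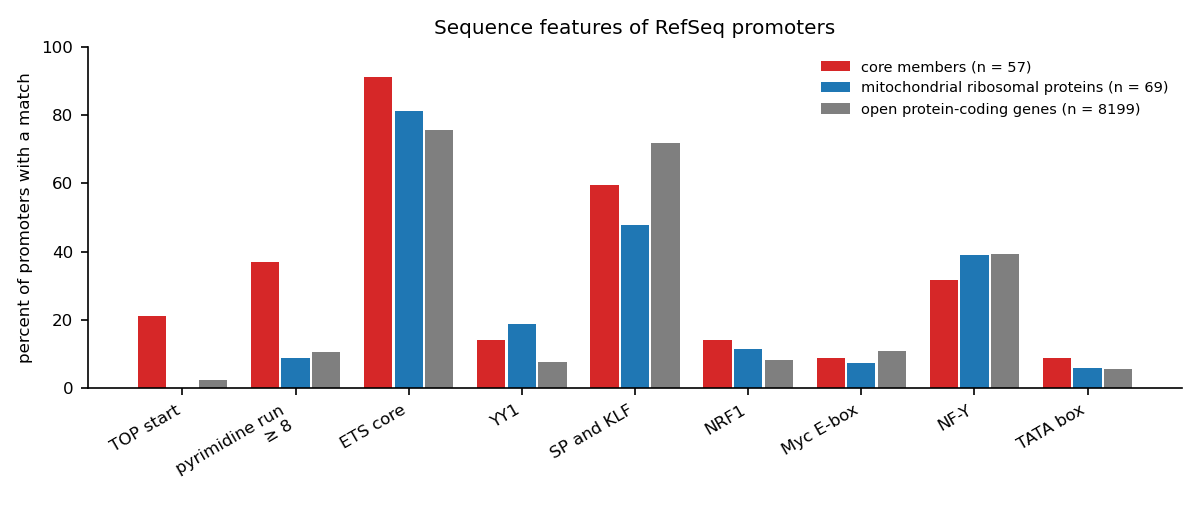
Percent of RefSeq promoters (y axis) that hold each sequence feature (x axis), for core ribosomal protein genes (red), genes for mitochondrial ribosomal proteins (blue) and all open protein-coding genes (grey); bars start at 0. The TOP start (21.1% against 2.24% of open genes) and the pyrimidine run (36.8% against 10.4%) set core members apart most in ratio, while the ETS core was common in every list and the GC box was less frequent in core members than in open genes (59.6% against 71.8%), though not than in all genes (48.6%).

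Rpl13a, the member with most promoter fragments, is shown as an example of these letters. Its 120 bases before the RefSeq start, chr7:45128746-45128865 on the minus strand of GRCm38.p6, held 1 ETS core and 1 GC box, in capitals, on the strand opposite to the spelling given above. The NF-Y letters are also present, left in lower case.
Rpl13a: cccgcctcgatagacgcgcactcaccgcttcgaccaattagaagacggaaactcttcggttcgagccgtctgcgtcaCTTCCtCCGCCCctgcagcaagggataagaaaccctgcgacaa

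Nearly all ribosomal protein promoters were open in HSCs. By the annotated gene start, 79 of 86 members (91.9%) were open, whereas 47.3% of all protein-coding genes were. The median member had 1587.5 fragments in its window of 1000 bp on each side and a fragment in 36.7% of cells, at the 83.4th percentile of all genes by fragments. The median of all genes was 314 fragments and 8.56% of cells. Together the members held 144283 of 14597976 promoter fragments, or 0.988% (0.983 to 0.993), while they are 0.392% of the genes.

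Large and small subunit genes were alike in level. The median large subunit gene, P stalk included, had 1539.5 fragments (32 to 4181) and the median small subunit gene 1723 (104 to 3824). The ranges overlapped almost in full. Ribosomal parts that the symbol rule does not take in lay within the range as well. Fau, a fusion of ubiquitin-like and ribosomal sequence, had 2771 fragments, and Rack1, a scaffold on the small subunit, had 588.

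Other housekeeping lists had lower or like median percentiles. The share of open genes was higher for RNA polymerase subunits (100%) and ribosome biogenesis factors (96.7%) than for the members (91.9%). The median gene for mitochondrial ribosomal proteins was at the 70.7th percentile, with 64 of 78 open, and the median RNA polymerase subunit gene at the 72.3rd, with 28 of 28 open. Proteasome subunits (34 of 40 open) had a median percentile of 75.0. Translation factors (58 of 68 open) had 81.9 and ribosome biogenesis factors (29 of 30 open) had 82.2, next to the 83.4 of the members.

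**Figure D2:**
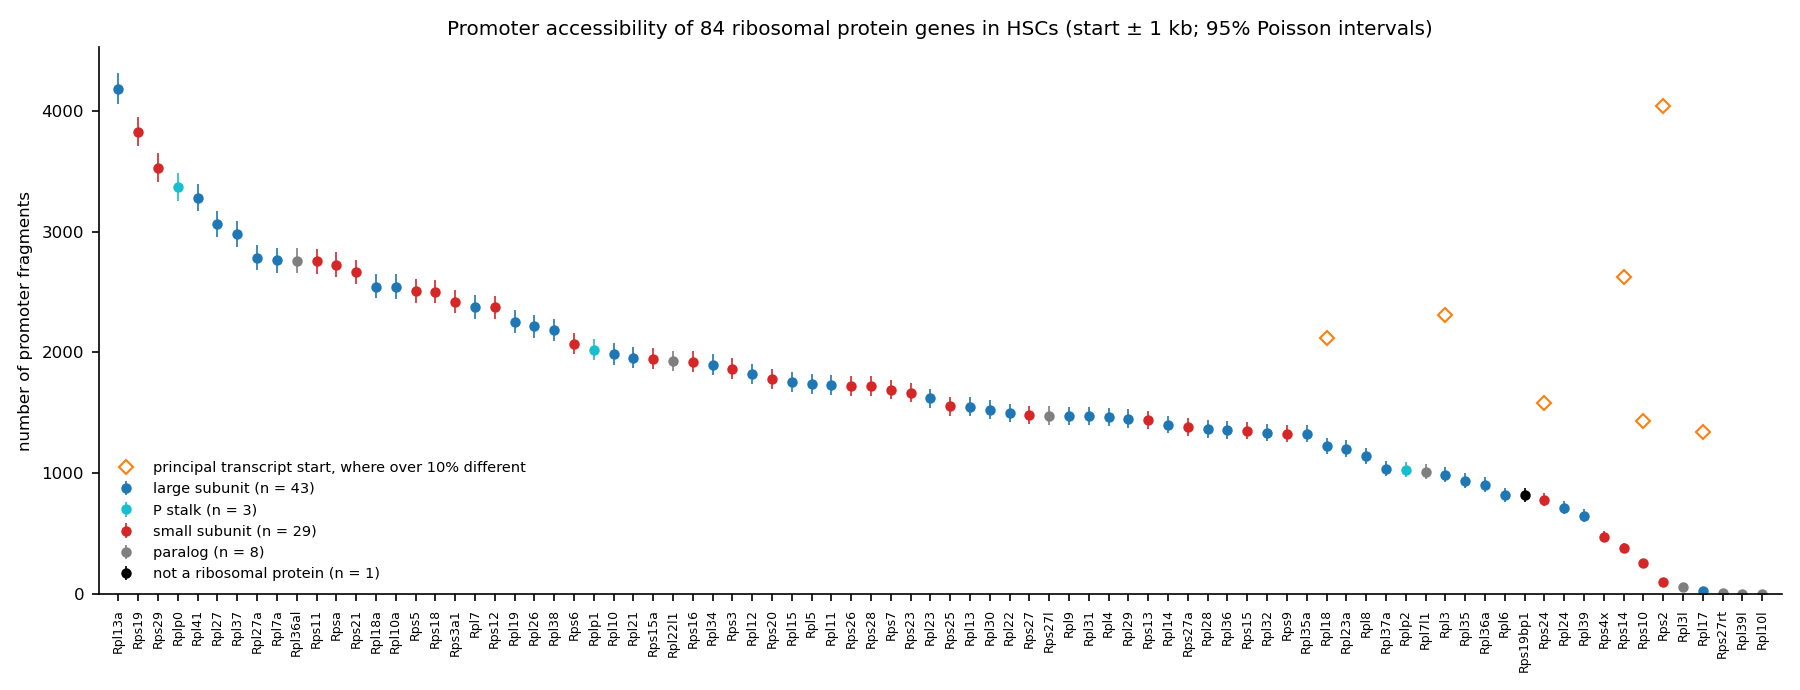
Number of promoter fragments (y axis) at the annotated gene start of 84 of the 86 members, ordered from most to fewest (x axis), in 3108 HSCs, with 95% Poisson intervals and colors for the role of the product; open diamonds give the value at the principal transcript start where it differs by over 10%. Levels fall from 4181 for Rpl13a to near 0 for 4 paralogs, and 7 core members on the right, from Rpl18 to Rpl17, have their diamond far above their dot.

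The 5 most accessible members were Rpl13a, Rps19, Rps29, Rplp0 and Rpl41. Rpl13a, a large subunit gene known for silencing of inflammatory mRNAs outside the ribosome, had 4181 fragments (4055 to 4310) and a fragment in 68.9% of cells. Rps19, the gene most often mutated in Diamond-Blackfan anemia, had 3824 (3704 to 3947). Rps29 had 3528 (3413 to 3646), Rplp0, the base of the P stalk, 3365, and Rpl41, which encodes the smallest ribosomal protein, 3280. The intervals of Rpl13a, Rps19 and Rps29 did not overlap each other.

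The 5 members with fewest fragments were Rpl10l (3), Rpl39l (7), Rps27rt (14), Rpl17 (32) and Rpl3l (58). All but Rpl17 are paralogs. Rpl10l and Rpl39l are known as testis genes and Rpl3l as a gene of muscle and heart. Rpl10l had a fragment in 0.0644% of cells, below the 0.0965% that a count of 0 would still allow.

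The level of 7 core members depended on which start was taken, because the gene record begins more than 1000 bp from the start of the principal transcript. Rps2, which sits at the mRNA entry of the small subunit, had 104 fragments at the gene start and 4034 at the principal start 1994 bp away. Rpl17 had 32 and 1342, and Rps14 386 and 2622. Rps10 had 263 and 1431, Rpl3 988 and 2310, Rpl18 1226 and 2118, and Rps24 782 and 1583. For 66 members both starts are the same base. Taken from the principal start, all 77 core members and 82 of the 86 members were open, and Rps2 came second only to Rpl13a.

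The P stalk recruits the GTPases of translation, and its 3 genes were spread widely, with Rplp0 at 3365 fragments, Rplp1 at 2022 and Rplp2 at 1031. Rpl5 and Rpl11, whose products join the 5S rRNA and can bind Mdm2, were close to each other, with 1737 and 1727 fragments. Their intervals overlapped.

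Genes mutated in Diamond-Blackfan anemia, a failure of red cell production, had a median of 1723 fragments over the 9 genes of the list, near the core median of 1693. Among them were Rps19 (3824), Rpl26 (2215), Rpl15 (1752), Rps26 (1723), Rps7 (1693), Rpl35a (1329), Rps24 (782) and Rps10 (263). At the principal start the last 2 had 1583 and 1431, which left Rpl35a as the lowest.

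Of 5 other members with known roles, 4 were above the member median of 1587.5 fragments and Rps27a below it. Rpsa, the laminin receptor homolog whose haploinsufficiency leaves people without a spleen, had 2723 fragments. Rps6 had 2073, Rps3, which also takes part in DNA repair, 1867, and Rps20 1779. Rps27a, made as a fusion with ubiquitin, had 1384.

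The median of the 4 X-linked core genes was lower than that of the autosomal ones, although Rpl10 was above it. Rpl10 had 1985 fragments, Rpl36a 906, Rpl39 651 and Rps4x 476, with a median of 778.5 against 1722 for 73 autosomal core members. Over all open genes the medians were 759 on the X and 1188 on autosomes. The sex of the mice was not used here, and the part of X copy number in these values was not tested.

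Of the 8 paralogs, 4 were open. Rpl36al had 2755 fragments, Rpl22l1 1928, Rps27l, a target of p53, 1477, and Rpl7l1 1015. The window of Rpl36al overlaps that of the neighboring gene Mgat2. In all, 20 members, among them Rpl41, Rpl3, Rps14 and Rps24, have another protein-coding start whose window overlaps theirs. Their median was 1478 fragments at the gene start. The 289 pseudogenes of these genes, named with -ps, had a median of 6 fragments, and 1 of them (0.346%) was open.

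Rps27 and its intronless copy Rps27rt are shown because they share the transcribed start but little of the sequence before it. Both are given from 10 bases before to 20 bases from the RefSeq start, with the bases that both genes share without a break in capitals.
Rps27: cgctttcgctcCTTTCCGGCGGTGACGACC
Rps27rt: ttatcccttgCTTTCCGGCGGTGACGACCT
The shared run was 38 bases long. It began at base 2 of Rps27 and at base 1 of Rps27rt (chr9:114982720-114982749, minus strand). In the 100 bases before it, 21% were identical. Rps27 had 1480 promoter fragments and Rps27rt 14. The part of the differing bases in this difference was not tested.

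Introns of ribosomal protein genes often carry snoRNAs, which guide the modification of rRNA. In the annotation 59 of 1507 snoRNA genes lay inside 30 members, and 443 protein-coding genes held any. Rpl4 held 5 and Rpl13a held 4. The 30 hosts, all of them core members, had a median of 1758 fragments. The median was 1693 for all core members and 1587.5 for all members, hosts included. Member genes were short, with a median of 3328.5 bp against 17425 bp for all protein-coding genes, and lay on 19 chromosomes.

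The signal at the start was narrow. Cut sites, the 2 ends of each fragment, were placed by their distance from the principal start. In the 77 core members 44.0% of cut sites within 1000 bp lay within 100 bp of the start, against 33.2% in all 10471 open genes, 41.0% in mitochondrial ribosomal protein genes, 40.9% in ribosome biogenesis genes and 34.4% in translation factors. The interquartile range of the distance was 240 bp in core members and 350 bp in open genes. Of the fragments, 55.8% were shorter than the DNA wound on a nucleosome, against 57.4% in open genes.

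**Figure D3:**
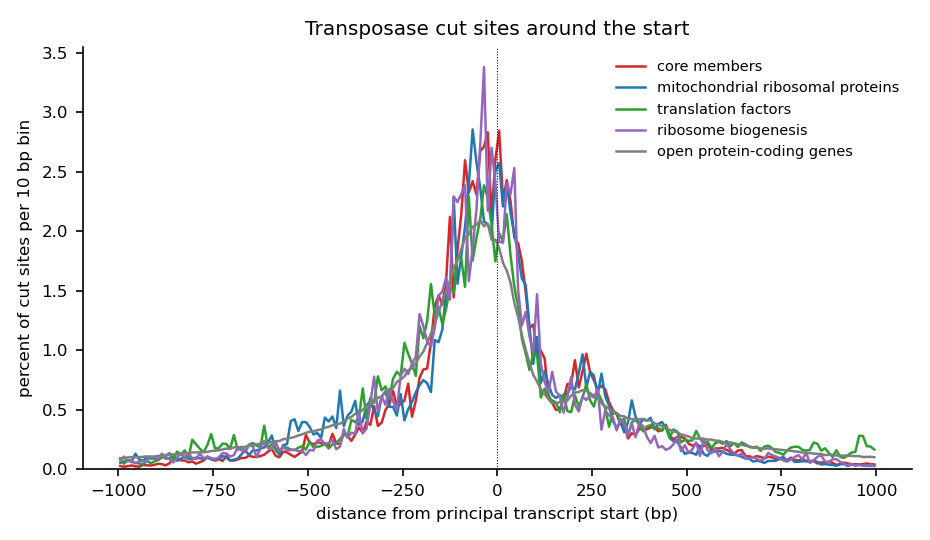
Percent of cut sites per 10 bp bin (y axis) by distance from the principal transcript start in bp (x axis), for core ribosomal protein genes (red), 3 housekeeping lists and all open protein-coding genes (grey). Core members keep 72.3% of their cut sites within 250 bp of the start, against 71.1% for ribosome biogenesis genes, 67.1% for mitochondrial ribosomal protein genes and 60.5% for open genes, and every list shows a smaller rise about 250 bp downstream.

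The highest bin of a core member was taken after each bin was summed with neighboring bins on both sides. It lay within 150 bp of the principal start in 65 of 77 genes and upstream of that start in 50. The share of cut sites within 100 bp ran from 4.61% for Rpl35 to 67.7% for Rps28, with a median of 46.7%. In Rpl35, Rplp2 and Rps10 the highest bin was 425, 245 and 215 bp downstream of the principal start, and the RefSeq start with its TOP motif lay 493, 281 and 301 bp downstream. These 3 genes were chosen after their values were seen. Over all 17 core members whose RefSeq and principal starts were more than 50 bp apart, the highest bin was nearer the RefSeq start in 9 and nearer the principal start in 8, and among the 6 of them with a TOP start the counts were 3 and 3. Rps25, whose product is known for a role in internal ribosome entry, had its highest bin 465 bp downstream.

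Every cell had fragments at member promoters, the fewest being 10, at a depth of at least 3970 fragments. The median cell held 45 member fragments, and the 5th to 95th percentiles were 22 and 74. Fragments fell on a median of 31 different member promoters per cell (8 to 79). This number followed depth, from 21 in the quintile of cells with fewest fragments to 39 in the quintile with most. The members' share of promoter fragments went the other way, from 1.02% to 0.951%. Cells differed in this share slightly more than sampling of fragments would give. The variance over cells was 1.32 times the binomial variance, and it was 1.18 to 1.30 times in the 5 housekeeping lists.

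Whether cells with more RNA had more accessible ribosomal protein promoters was looked at in quintiles of 620 or 628 cells, ranked by RNA UMIs within 10 strata of ATAC depth. The members' share of promoter fragments was 0.983%, 0.996%, 0.995%, 0.994% and 0.975% from the RNA-poorest to the RNA-richest quintile. The outer quintiles were the 2 lowest, and the intervals of neighboring quintiles overlapped. The richest 620 cells had a median of 5384 UMIs and the poorest 620 a median of 2585. Between them the log2 ratio of the members' share was -0.01 (-0.03 to 0.01). Without strata of depth it was -0.06 (-0.08 to -0.03). Over cells, the Spearman correlation with fragments per cell was 0.28 for RNA UMIs and -0.12 for the members' share. The part of depth in the ratio without strata was not tested. Within strata, large subunit genes gave 0.01 and small subunit genes -0.03, with overlapping intervals.

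Single members showed few differences. A gene was tested when it had at least 200 fragments in both sets of cells together, and counted when its log2 ratio passed 0.2. In RNA-rich cells 2 of 77 members tested were higher, where 12.5% of 9191 genes were, and 4 were lower, where 9.85% were. Rpl22, a large subunit gene dispensable for the ribosome and lost in some T cell leukemias, had 341 fragments in RNA-rich and 264 in RNA-poor cells, a log2 ratio of 0.27 (0.04 to 0.51). Its paralog Rpl22l1 went the opposite way, with 336 and 399 fragments and a log2 ratio of -0.34 (-0.56 to -0.13). Rps19bp1 passed at 0.30 (-0.02 to 0.62), and Rpl6 (-0.26), Rps9 (-0.25) and Rps15 (-0.25) passed on the lower side. The intervals of Rps19bp1, Rpl6 and Rps15 included 0, and with cells thinned to 3000 fragments Rps15 had -0.58. With tertiles of cells in place of quintiles, Rpl6 (-0.06), Rps15 (-0.09) and Rps19bp1 (0.18) did not pass 0.2. Members have more fragments than most genes, which narrows their counting error, so a smaller share past a fixed ratio is no finding about them.

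Of the housekeeping lists, 2 had intervals above 0. Ribosome biogenesis genes had a log2 ratio of 0.07 (0.03 to 0.11) in RNA-rich over RNA-poor cells, an interval that did not overlap that of the members, and mitochondrial ribosomal protein genes had 0.03 (0.002 to 0.06). Translation factors had -0.02, the proteasome 0.01 and RNA polymerase subunits 0.04, with intervals that included 0. The mitochondrial share moved with the ranking. Mitochondrial reads were 2.68% of the pooled ATAC reads in the RNA-poorest quintile and 0.826% in the richest, while the cell medians were 0.194% and 0.281%. The members' log2 ratio was also taken without cells over 5% mitochondrial reads, an alternative chosen after the data were seen, and was -0.01.

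Ribosomal DNA was read from an interval of 10 kb on chromosome 17 of mm10 that holds an annotated rRNA gene, into which fragments of the many rDNA copies map. It held 261685 fragments, 0.705% of all, with a median of 69 per cell (0 to 1588), and 1 cell had none. The number of rDNA copies and their accessibility cannot be told apart.

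Cells with more rDNA fragments at a given depth had a slightly higher share of fragments at ribosomal protein promoters. From the rDNA-poorest to the rDNA-richest quintile the share was 0.976%, 0.980%, 0.983%, 0.991% and 1.01%. It increased at each step, although only the highest quintile had an interval apart from those of the lowest 3. The log2 ratio of the highest over the lowest quintile was 0.05 (0.03 to 0.08) as a share of promoter fragments and 0.11 (0.09 to 0.14) as a share of all fragments. Large subunit genes had 0.04 (0.01 to 0.07) and small subunit genes 0.05 (0.01 to 0.09).

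The ratio was not found for ribosomal protein genes alone. Proteasome genes had 0.06 (0.02 to 0.10) and RNA polymerase subunits 0.06 (0.02 to 0.10), whose intervals overlapped that of the members. Translation factors had 0.02 (-0.01 to 0.05), an interval that included 0 and also overlapped that of the members. Mitochondrial ribosomal protein genes had -0.01 (-0.03 to 0.02) and ribosome biogenesis genes -0.04 (-0.08 to 0.00). The pooled share of mitochondrial reads was 0.801% in the rDNA-poorest quintile and 2.46% in the richest, while the cell medians were 0.240% and 0.279%. The median RNA count was 4038 and 3755 UMIs. Without cells over 5% mitochondrial reads, which left 2911 cells, the members' ratio was 0.05.

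**Figure D4:**
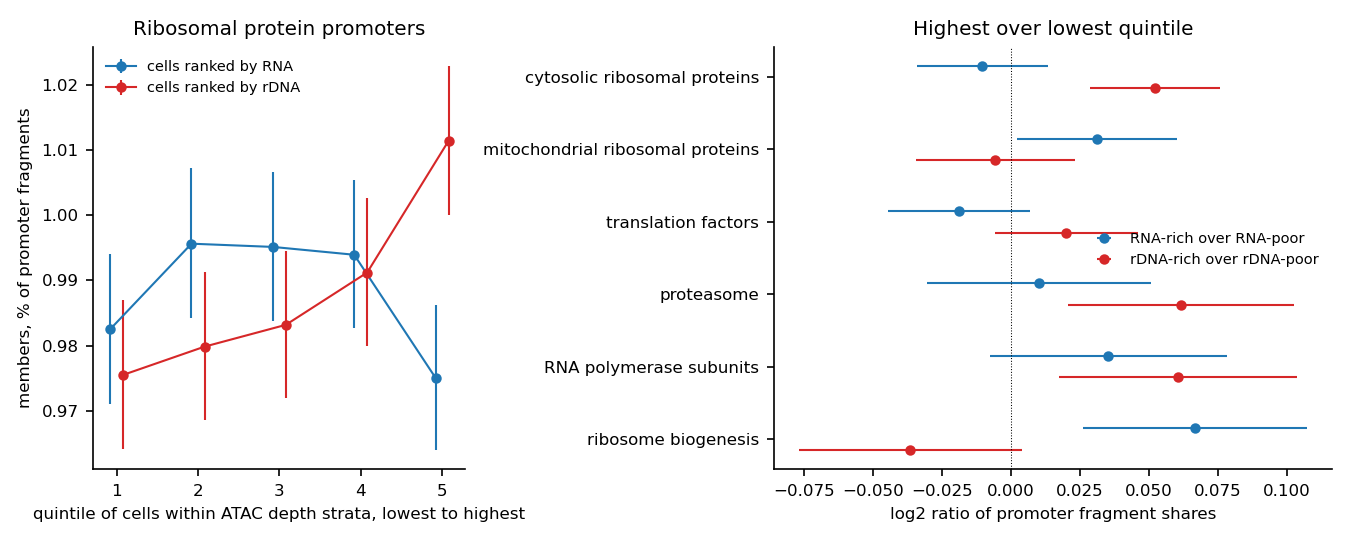
Left, the members' percent of promoter fragments (y axis, which does not start at 0) in quintiles of cells ranked within ATAC depth strata by RNA UMIs (blue) or by rDNA share (red), from lowest to highest (x axis); right, log2 ratio of the highest over the lowest quintile (x axis) for the members and 5 housekeeping lists; bars are 95% counting intervals. The red line climbs from 0.976% to 1.01% and the blue line shows no trend, and proteasome and RNA polymerase genes lie beside the members in the rDNA ranking.

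Of the members tested, 51 of 77 (66.2%) were above 0 in rDNA-rich cells, where 51.6% of all tested genes were, with medians of 0.06 and 0.01. Past a log2 ratio of 0.2, 8 members were higher, against 11.0% of 9152 genes, and 4 were lower, against 12.9%. The share of members that were higher, 10.4%, was near that of all genes, and the share that were lower, 5.19%, was below it. As in the RNA ranking, members have more fragments than most genes, so shares past a fixed ratio are no finding about them. Rpl35 had 215 fragments in rDNA-rich and 152 in rDNA-poor cells, a log2 ratio of 0.43 (0.13 to 0.74). Rpl7 had 549 and 420, at 0.32 (0.13 to 0.51), and Rpl36 0.29, Rpl36al 0.26 and Rps19bp1 0.24 (-0.08 to 0.56). On the lower side Rpl32 had 251 and 299 fragments, at -0.32 (-0.57 to -0.07), and -0.80 (-1.31 to -0.31) with cells thinned to 3000 fragments. Rplp2 followed at -0.25 (-0.54 to 0.04), Rps25 at -0.23 and Rpl14 at -0.21, each with an interval that included 0. With tertiles of cells Rpl36 (0.15), Rplp2 (-0.16) and Rpl14 (-0.03) did not pass 0.2, nor did Rps25 (-0.14) over all called cells or Rps19bp1 (0.08) after thinning. Rpl35 passed at 0.25 with tertiles.

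**Figure D5:**
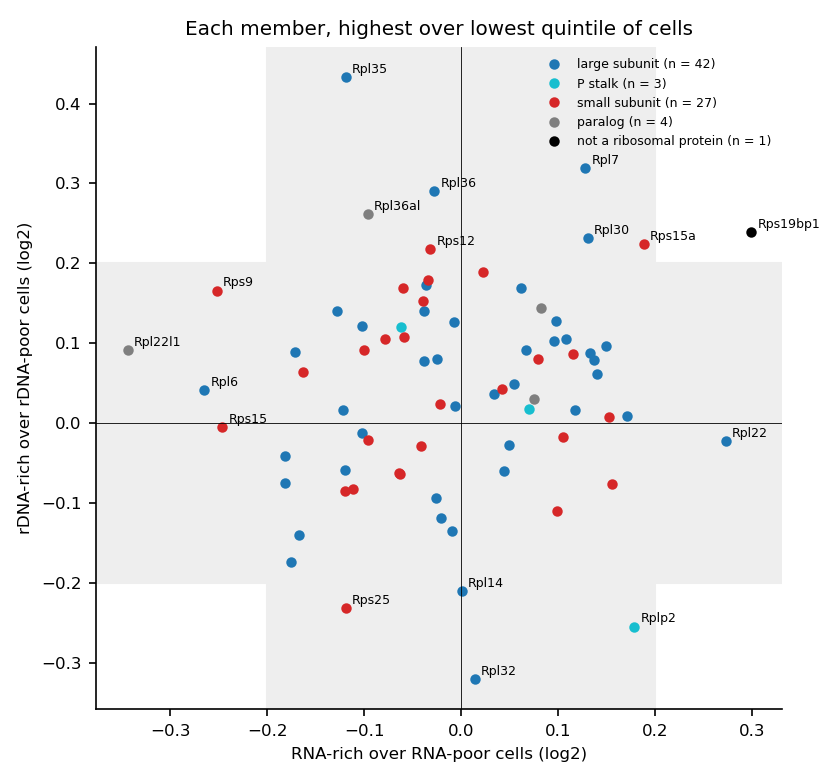
Log2 ratio of each of the 77 members tested in RNA-rich over RNA-poor cells (x axis) and in rDNA-rich over rDNA-poor cells (y axis), colored by role; grey bands mark ratios within 0.2, and members outside on either axis are named. Only Rps19bp1 passes 0.2 on both axes, and most points lie above 0 on the y axis while they spread to both sides on the x axis.

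Over the 3108 cells the Spearman correlation of the members' share with RNA UMIs was -0.06, and -0.03 given ATAC depth. With the rDNA share it was 0.10, and 0.08 given depth. Both are descriptions over cells of 1 library that share depth and hold a median of 45 member fragments each. Values this weak are no finding, and the difference between rDNA quintiles given above is likewise only a description of this library.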

How the data were processed

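DOGMA-seq libraries for ATAC, RNA and antibody tags of 1 HSC preparation were deposited. The authors ran Cell Ranger ARC 2.0.2 on mm10 and deposited counts: reads, UMIs and fragments per barcode, a call of cells, and unique fragments with the count of read pairs behind each. The antibody tag counts were not used here. No value is normalized. RNA counts per gene were not used here, so RNA enters as UMIs per cell.

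Called cells with over 3000 fragments in peaks were kept, including doublets. Of 605049 barcodes 3108 remained. Depth limits single genes: a member had 3 to 4181 fragments. Fragments overlapping 1000 bp on each side of a gene start were counted, each once in sums over lists. Starts came from GENCODE vM21, and the principal start is that of the APPRIS principal transcript. Names ending in -ps and a number were read as pseudogene names. Poisson, Clopper-Pearson and log2 ratio intervals at 95% assume independent fragments. Python 3.11.15, numpy 2.4.6, scipy 1.17.1 and pandas 2.3.3 were used, and steps were tested on simulated data. Alternatives were the window, start, cells, depth and denominator.

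The members and lists were chosen with earlier results of these data known. Genes named in the text are those of the role lists (P stalk, 5S partners, Diamond-Blackfan anemia, X-linked, paralogs, others), the 5 with most and the 5 with fewest fragments, and up to 5 past the ratio in each direction. Rps4l of the list of paralogs is not among the protein-coding genes. Genes named for snoRNAs, for the place of the highest bin or for a start over 1000 bp away were chosen after their values were seen. Values of some genes of these lists are not reported here.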

Additional observations from a re-analysis of the deposited data

How the results depend on the processing

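The openness of the members depended on depth. Thinned to 3000 fragments per cell, 70.9% of members were open where 20.8% of all genes were, because fewer fragments reach the 10% limit. The other alternatives gave 90.7% to 96.1%. The members' share of promoter fragments was 1.06% with a window of 500 bp, 1.04% at the principal start, 1.01% after thinning, 0.997% by cut sites and 0.933% for core members alone, all by more than counting error from 0.988%, and it was 0.988% over all called cells. The log2 ratio of RNA-rich over RNA-poor cells was -0.0559 without strata of depth, with an interval that excluded 0, and -0.02 to -0.01 under the other alternatives. The log2 ratio of rDNA-rich over rDNA-poor cells was 0.11 when all fragments were the denominator, where the share of promoter fragments itself rose from 38.1% to 39.8% between those quintiles. It was 0.04 to 0.07 under the other alternatives. Levels of single members per fragment left their counting interval in 39 of 86 members with a window of 500 bp, 40 after thinning, 7 at the principal start, 3 by cut sites and none over all called cells. No member past a log2 ratio of 0.2 changed sign under any alternative, but 2 of 18 such ratios left their interval after thinning, Rps15 at -0.58 (RNA) and Rpl32 at -0.80 (rDNA). No paired analysis was possible because the series holds 1 preparation with 1 library of each kind. With 1 preparation, no value here shows how HSCs of other mice vary.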
